A study of Mus musculus with 76 samples.

Results

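Retrocopies and pseudogenes of ribosomal protein genes were followed across 75 mouse RNA-seq libraries of sorted blood-forming and T lineage cells. A row of the expression table counted as a member if its gene symbol began with Rpl or Rps and ended in -ps with or without digits, or was Rps3a2, Rps27rt, Rpl6l or Rpl37rt, and if its mean over all libraries was at least 1 FPKM (fragments scaled to transcript length and to library size). Of 37980 rows, 199 had such a symbol and 82 reached the minimum. The members were thus chosen by their mean FPKM over all libraries, and levels are given below as a description only. Just inside the minimum were Rps12-ps9 at 1.05 FPKM and Rpl30-ps11 at 1.07 FPKM, and just outside it were Rpl10-ps2 at 0.922 FPKM and Rpl13-ps5 at 0.891 FPKM. Rows that were high in any large group reached the minimum more easily, so counts over the members describe the members that passed.

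Ribosomal proteins are the protein part of the ribosome, and their mRNAs are among the most abundant in every growing cell. A processed pseudogene arises when such an mRNA is reverse transcribed and inserted elsewhere in the genome. The copy has no introns and often lacks a promoter of its own, although some copies are transcribed. A sequencing read from a stretch that is identical in copy and parent cannot be told apart by its letters. A read that spans an exon junction of the parent must be split to align to the parent and aligns to the copy without a gap. How such shared reads were divided in the deposited values is not given in the sources used here, so each value below is uncertain for reads shared with a parent or with another copy.

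The induced groups were pro/pre-B cells that had been infected in culture with a virus carrying the homeobox gene Hoxb5, sorted and transplanted into sublethally irradiated mice. Descendants were then sorted from marrow or thymus as bone marrow early T lineage progenitors (BM_iETP, 2 libraries), thymic progenitors (Thy_iETP, 3), the double negative stages iDN1 (4), iDN2 (2), iDN3 (3) and iDN4 (4), double positive cells (iDP, 3) and single positive cells (iCD4_SP, 4, and iCD8_SP, 4). The natural counterparts were BM_ETP (3), Thy_ETP (2), DN1 (3), DN2 (3), DN3 (2), DN4 (3), DP (4), CD4_SP (3) and CD8_SP (3), beside the starting pro/pre-B population (3), HSC (blood stem cells, 4), MPP (multipotent progenitors, 4) and mature T (3), B (4) and myeloid cells (2). All mice were C57BL/6, and each library came from polyadenylated RNA of 1000 sorted cells. The labels give no ages, no vector or promoter, no treatment of the natural cells, and no word on separate animals behind the libraries of a group, so p-values measure only the spread between these libraries, which may be technical.

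Lineage markers were at the labelled lineage in some groups and not in others. The 9 T lineage markers summed to 2137 to 2742 FPKM in iDN1 and 2205 to 2322 FPKM in natural DN1 libraries, and to 2899 to 3543 FPKM in iCD8_SP and 3188 to 3418 FPKM in CD8_SP libraries, with none of the 9 at 0 in every library of a group. BM_iETP libraries carried 7641 to 8030.1 FPKM of 8 B lineage markers and 6.48 to 9.84 FPKM of the T lineage markers, of which 7 were at 0, so their values go against the label of early T lineage progenitors. BM_ETP libraries likewise carried 5.27 to 10.7 FPKM of T lineage markers, with 18425 to 30399 FPKM of 6 myeloid markers. Natural DN1 libraries carried 1239.6 to 1331 FPKM of 3 natural killer markers beside those of the T lineage. Hoxb5 was above 0 in all 29 induced libraries (0.0662 to 3.47 FPKM) and was at 0 in 22 of the 26 libraries of the natural groups paired with them. Depth, placed from the smallest steps between low values, ran from 0.970 to 11.3 fragments per FPKM and kilobase. At the median depth 1 FPKM of a member stood for 1.99 fragments (0.642 to 5.14 over members), so members of a few FPKM rest on a handful of fragments, and in such bulk samples fewer cells of a type and less RNA per cell cannot be told apart.

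The 82 members were 39 copies of small-subunit and 43 of large-subunit genes and derived from 45 parent genes by name, on 18 chromosomes. Rpsa, which encodes a small-subunit protein also known as a laminin receptor, had 6 copies, and Rpl31, Rps12 and Rps15a had 5 each. The annotation called 74 processed pseudogenes, 4 transcribed processed pseudogenes (Rps26-ps1, Rpl37rt, Rps2-ps10 and Rps15a-ps4) and 4 protein coding (Rps27rt, Rpl9-ps6, Rpl10-ps3 and Rpl36a-ps1). All but Rpl37rt had 1 exon, whereas the parents had 3 to 10 (median 5). By BLAST against the parent transcripts, 81 members aligned, with 89.6% to 100% identity (median 98.9%). The exception was Rpl18-ps1, which did not align to Rpl18. Its best match was another ribosomal protein gene, with 98.3% identity over 525 bases, so Rpl18 is its parent by name only. A gene body of another gene overlapped 35 members, and an exon overlapped 4. Because strand was not stated for the counting, RNA of those genes cannot be told apart from RNA of the copy.

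Pairs of copy and parent are printed because their sequences are identical or nearly so and their values below differ. Each stretch is 120 bases of the coding strand, lies in the coding part of the parent and spans an exon junction of the parent, from base 61 to the next. Capitals mark bases that differ between copy and parent, positions are counted from 1 at the first base printed, and sequences and gene positions are from the GRCm38 assembly with the GENCODE annotation. Rps16-ps2 (chr5:129128077-129128517, minus strand) and Rps16 (chr7:28350652-28353155, plus strand), whose protein reaches toward the decoding site of the small subunit, had the same bases throughout.
Rps16-ps2: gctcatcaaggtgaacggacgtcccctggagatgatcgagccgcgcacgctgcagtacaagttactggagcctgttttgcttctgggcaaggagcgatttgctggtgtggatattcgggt
Rps16: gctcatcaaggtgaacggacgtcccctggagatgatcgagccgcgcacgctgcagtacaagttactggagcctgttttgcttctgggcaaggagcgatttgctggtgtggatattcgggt
Rps3a2 (chr14:88123017-88123808, minus strand) differed from Rps3a1 (chr3:86137940-86142702, minus strand), a small-subunit gene, by A33T and T56C, with the parent base first.
Rps3a2: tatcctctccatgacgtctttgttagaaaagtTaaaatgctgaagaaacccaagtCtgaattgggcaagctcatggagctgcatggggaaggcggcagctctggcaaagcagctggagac
Rps3a1: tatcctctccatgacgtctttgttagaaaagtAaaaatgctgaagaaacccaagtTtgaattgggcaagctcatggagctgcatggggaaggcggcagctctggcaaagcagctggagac
Rpl10-ps6 (chr19:37295155-37295796, minus strand) differed from Rpl10 (chrX:74270812-74273135, plus strand), whose protein joins the large subunit late in its assembly, by C26T.
Rpl10-ps6: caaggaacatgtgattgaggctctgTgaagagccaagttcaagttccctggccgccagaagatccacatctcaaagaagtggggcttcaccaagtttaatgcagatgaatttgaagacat
Rpl10: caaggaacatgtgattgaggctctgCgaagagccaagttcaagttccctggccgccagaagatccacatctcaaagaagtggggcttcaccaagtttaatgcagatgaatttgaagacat

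In the summed FPKM of the 82 members, natural DN1 and natural CD8_SP libraries lay far below every other library. The sum was 2489 to 2982 FPKM in the 4 iDN1 libraries, against 162, 171 and 195 FPKM in the 3 natural DN1 libraries. It was 2909 to 4833 FPKM in the 4 iCD8_SP libraries, against 134, 149 and 154 FPKM in the 3 CD8_SP libraries. The 69 libraries outside natural DN1 and CD8_SP ran from 913 to 9750.3 FPKM with a median of 3300.4, and they include the neighbouring natural stages, at 3721 to 4239 FPKM in DN2 and 2576, 3014 and 4471 FPKM in CD4_SP. The lowest of the 69 was library 3 of iDP, described below.

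The parent genes did not share this gap. They summed to 100156 to 108994 FPKM in the 6 natural DN1 and CD8_SP libraries, inside the 26319.6 to 276243 FPKM of the other 69. The members' share of member plus parent FPKM was 0.130% to 0.179% in those 6 libraries, against 1.73% to 4.73% elsewhere. Outside the mature myeloid group, which stood at 4.58% and 4.73%, the share was 1.73% to 3.67% in 67 libraries whose parent sums differed by several fold. The number of members listed at 0 was 9 to 24 in the 6 libraries and 2 to 37 in the rest, where the 2 myeloid libraries, the shallowest of the series, had 34 and 37.

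**Figure D1:**
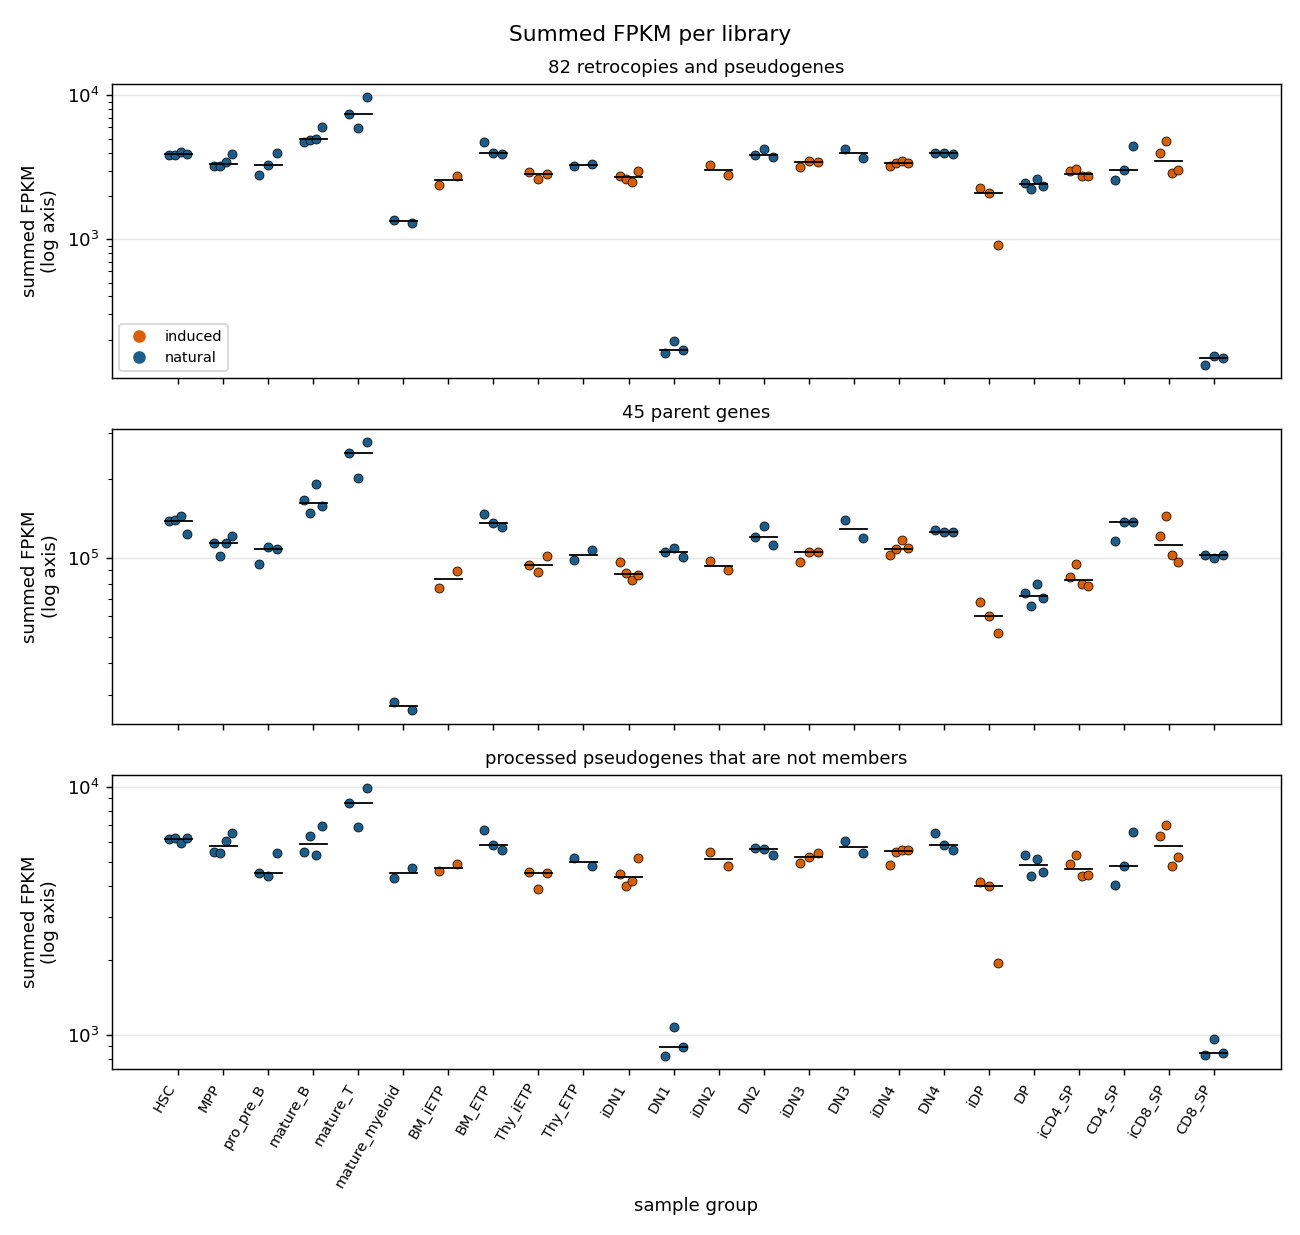
Summed FPKM per library (log axes) of the 82 members, of their 45 parent genes and of the processed pseudogenes that are not members, with 1 point per library, a bar at the group median and induced groups left of their natural counterparts. Natural DN1 and CD8_SP libraries lie at 134 to 195 FPKM of members while their parent sums of 100156 to 108994 FPKM lie among those of other groups.

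A gap was also seen in rows outside the members, which were sorted by annotated type and symbol alone. These rows were not screened by sequence for ribosomal origin, so copies of ribosomal protein genes under other symbols may be among them. The other 3589 processed pseudogene rows summed to 826 to 1074 FPKM in the natural DN1 and CD8_SP libraries, against 1955 to 9912 FPKM elsewhere. The other 685 rows with symbols ending in -ps summed to 189 to 461 FPKM, against 803 to 2624 FPKM elsewhere. The share of low values lying near whole numbers of fragments (within 0.2 of one) was 90.0% to 93.6% in the 6 libraries (median 91.5%), against 73.6% to 92.2% elsewhere (median 80.9%), and the ranges overlapped through library 3 of iDP. Depth was 3.61 to 11.3 fragments per FPKM and kilobase in the 6 libraries and 0.970 to 9.45 in the others, so the ranges overlapped. The part of read assignment in these gaps was not tested.

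The members divided by level. Their means over all libraries were at least 100 FPKM for 10, at least 10 FPKM for 40 and between 1 and 10 FPKM for 42. The 40 members of higher level carried nearly all of the sum and nearly all of the gap: they summed to 2398 to 2911 FPKM in iDN1 and 94.8 to 144 FPKM in natural DN1 libraries, and to 2826 to 4696 FPKM in iCD8_SP and 72.1 to 92.0 FPKM in CD8_SP libraries. The 42 of lower level summed to 67.8 to 91.3 FPKM in iDN1 and 51.2 to 67.6 FPKM in DN1 libraries, and to 83.3 to 140.2 FPKM in iCD8_SP and 56.7 to 71.1 FPKM in CD8_SP libraries. Sums in the second class averaged 76.8 ± 10.4 FPKM in iDN1 (SD, n = 4) and 61.3 ± 8.85 FPKM in DN1 (SD, n = 3), and 113 ± 29.7 FPKM in iCD8_SP (SD, n = 4) and 63.4 ± 7.24 FPKM in CD8_SP (SD, n = 3), so natural groups were lower there too, by much less than in the first class. In 24 members all 6 natural DN1 and CD8_SP libraries lay below all 69 others, and in 34 they did so with the myeloid libraries left out. None of the 45 parent genes did so in either case (0). The same count was not made over all genes, and the minimum favoured rows that were high in the other libraries. These counts therefore describe the members only.

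**Figure D2:**
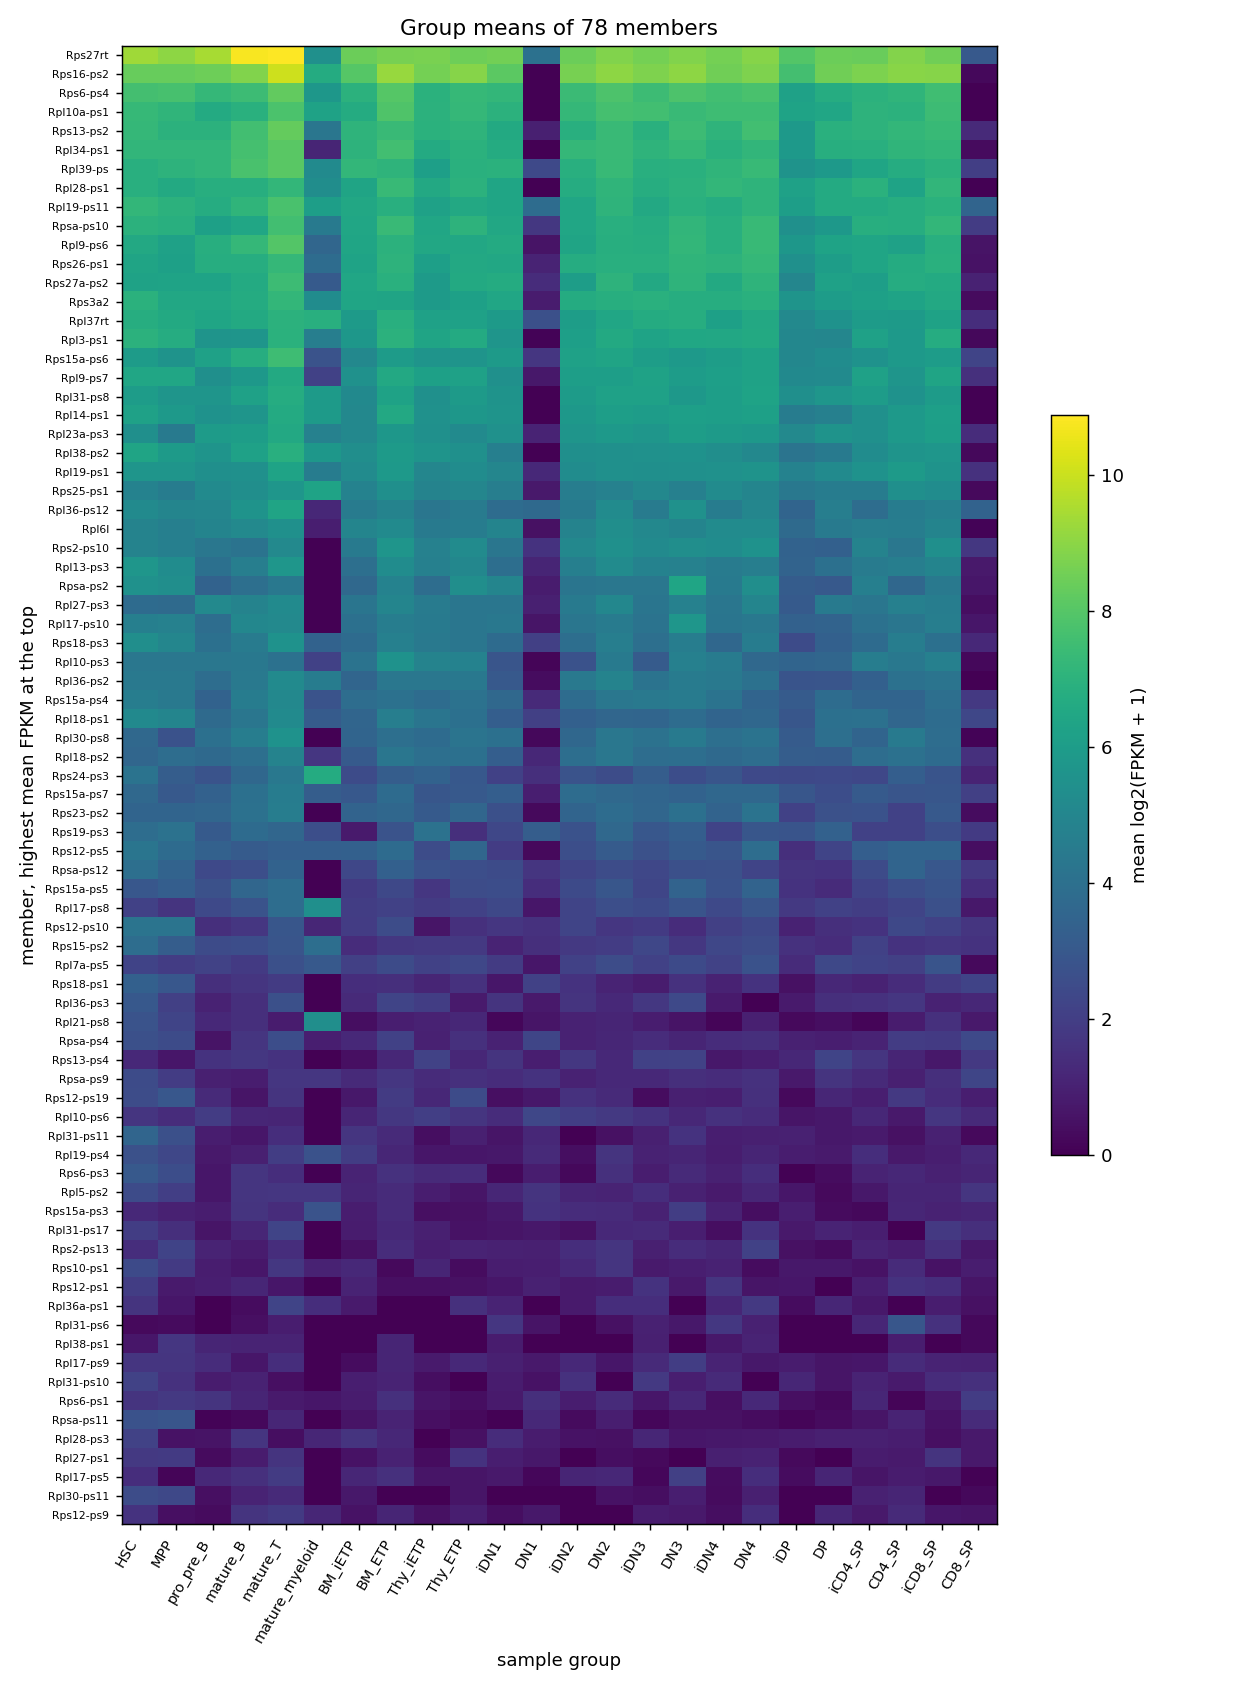
log2(FPKM + 1) of 78 members (rows, by mean level) as the mean of each group (columns, induced left of natural). The columns of natural DN1 and CD8_SP are near 0 for most members of at least 10 FPKM and differ less from the other columns for most members of lower level, with exceptions such as Rps23-ps2 and Rps12-ps5.

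For most members of at least 10 FPKM the highest group mean lay where the parent sums were highest. Mature T cells, with the highest parent sums (202826 to 276243 FPKM), had the highest group mean for 30 of the 40, and BM_ETP for 5. Mature myeloid cells, with the lowest parent sums (26319.6 to 28183 FPKM), had it for 2, DN3 for 2 and iDN1 for 1. The lowest group mean fell in CD8_SP for 18, in DN1 for 14 and in the mature myeloid group for 8. HSC had the highest group mean for 17 of the 42 members of lower level and for 0 of the 40. HSC libraries also listed the fewest members at 0, between 2 and 4, and had 77 to 80 members at 1 FPKM or more. Over all genes they also had many rows at that level, 11968 to 12202, against a median of 10670.0 over the 75 libraries. The group of the highest mean was not counted over all genes. The order of groups is a description, because the levels themselves chose the members.

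Induced DN1 cells were set against natural DN1 cells to ask how closely the induced stage matched its counterpart. With limma on log2(FPKM + 1) and Benjamini-Hochberg adjustment over all 17416 genes tested, 42 of the 82 members (51.2%) rose in iDN1, 3 (3.66%) fell and 37 did not pass. Over all genes 9.90% rose and 8.93% fell (18.8% in either direction). The median log2 fold change, on the log2(FPKM + 1) scale that understates changes of low genes, was 1.22 over the members and 0.0 over all genes. The 78 cytosolic ribosomal protein genes had a median of -0.26, with 4 higher and 33 lower, and the 45 parents a median of -0.20, with 3 higher and 17 lower. The lower parents depended on the scaling: with quantile normalization 9 parents were higher and 10 lower (median 0.05) and 18 ribosomal protein genes lay on each side, while 43 members were higher and 3 lower (median 1.29).

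Rps16-ps2 gave the widest gap. It stood at 345, 229, 254 and 291 FPKM in the 4 iDN1 libraries and was listed at 0 in all 3 natural DN1 libraries. Its parent Rps16 stood at 3836, 3810.2, 3484 and 3739 FPKM in iDN1 and 5034, 5744 and 4906 FPKM in natural DN1 libraries, so the parent was lower in iDN1 (log2 fold change -0.49 ± 0.11 SE, limma adjusted p = 0.000706) where the copy was higher, although not past the threshold with quantile normalization (-0.11, limma adjusted p = 0.535). Other copies were also at 0 in natural DN1. Such was Rps6-ps4, a copy of the gene for the small-subunit target of S6 kinase, at 124 to 179.5 FPKM in iDN1 and 0 in DN1 libraries, while Rps6 did not pass (log2 fold change -0.2, limma adjusted p = 0.255; 0.06 with quantile normalization). Rpl10a-ps1, whose parent encodes the mobile stalk protein of the large subunit, ran from 107 to 139 FPKM in iDN1 and was at 0 in DN1, Rpl28-ps1 from 70.3 to 114 FPKM and at 0, and Rpl34-ps1 from 95.5 to 114 FPKM and at 0. Natural DN1 listed 11 members at 0 in all of its 3 libraries and iDN1 listed 1 in all of its 4. Some of the 11, such as Rpl36a-ps1 and Rpl38-ps1, were also at 0 throughout natural DN3. Rows at 0 were not counted over all genes, so these counts are a description.

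Rps3a2 and Rps27rt had been picked earlier for their low values in natural DN1, so their difference there is a description. Rps3a2 had 77.7, 87.0, 92.3 and 84.6 FPKM in iDN1 and 1.42, 1.41 and 0 FPKM in natural DN1 libraries, while Rps3a1 ran from 3237 to 3481 FPKM in iDN1 and from 2856 to 3057 FPKM in DN1. Rps27rt, annotated as protein coding, had 364, 359, 349 and 435 FPKM in iDN1 and 16.1, 17.8 and 13 FPKM in natural DN1 libraries. Its parent Rps27, a small-subunit zinc finger protein gene, ran from 2567 to 3216 FPKM in iDN1 and from 2036 to 2308 FPKM in DN1. Both copies separated the groups without overlap, by far more than the parents did. Rpl6l, the copy of the large-subunit gene Rpl6, had 33.1, 27.7, 24.1 and 32.4 FPKM in iDN1 and 0.314, 0.623 and 0.289 FPKM in DN1 libraries (log2 fold change 4.42 ± 0.29 SE, limma adjusted p = 2.95e-19), whereas Rpl6 was lower in iDN1 (1024 to 1227 FPKM, against 1473 to 1703 FPKM in DN1). Rpl37rt, the copy of a large-subunit zinc finger protein gene, had 65.0, 57.6, 45.5 and 78.7 FPKM in iDN1 and 5.46, 5.91 and 4.56 FPKM in DN1 libraries (3.29 ± 0.32 SE, limma adjusted p = 2.62e-12).

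**Figure D3:**
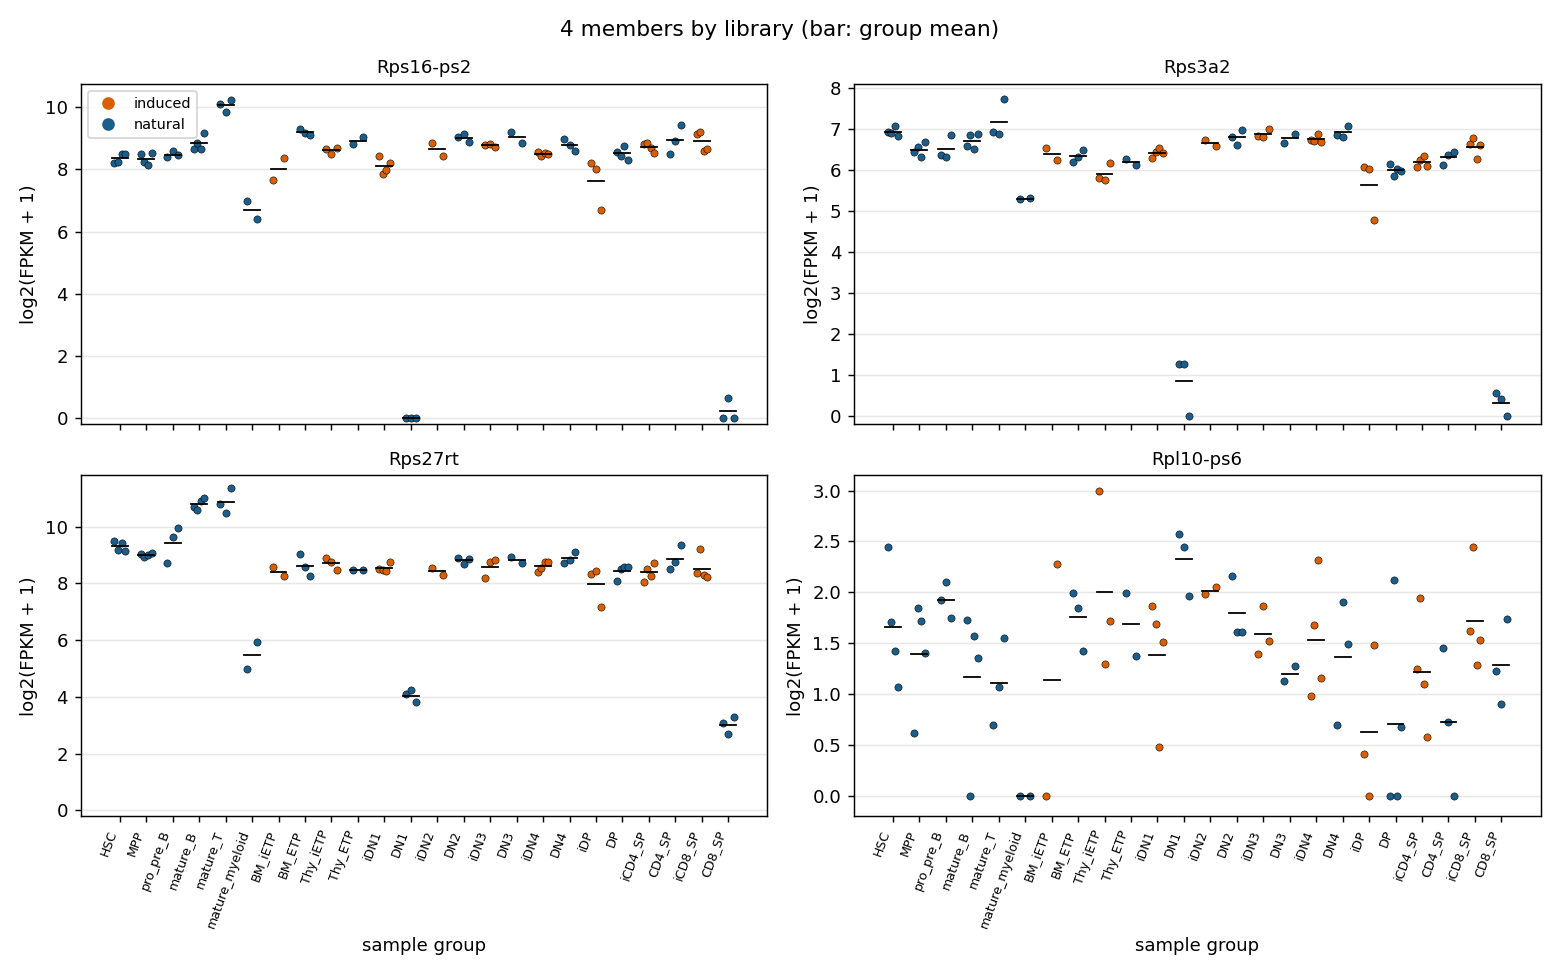
log2(FPKM + 1) per library of Rps16-ps2, Rps3a2, Rps27rt and Rpl10-ps6, induced groups left of their natural counterparts, 1 point per library and a bar at the group mean. Rps16-ps2 and Rps3a2 lie between 0 and 1.42 FPKM in natural DN1 and CD8_SP libraries and far higher in the rest, Rps27rt lies between 5.46 and 17.8 FPKM there, and Rpl10-ps6 shows no such drop.

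Other copies of high level kept some signal in natural DN1. Rpl39-ps ran from 108 to 158 FPKM in iDN1 and from 3.31 to 6.29 FPKM in DN1 (log2 fold change 4.58 ± 0.28 SE, limma adjusted p = 1.68e-20). Rpl19-ps11 ran from 75.3 to 98.5 FPKM in iDN1 and from 11.1 to 15.7 FPKM in DN1 (2.55 ± 0.20 SE, limma adjusted p = 2.42e-16). The level left in natural DN1 thus ran from 0 to over 10 FPKM among copies that had about 100 FPKM in iDN1. The 3 members that fell in iDN1 were of low level. Rps18-ps1 had 0 to 1.14 FPKM in iDN1 and 2.32 to 4.65 FPKM in DN1 (-1.45 ± 0.53 SE, limma adjusted p = 0.0426), a call that was lost in 9 of 14 alternatives (limma adjusted p = 0.0359 to 0.342 over the 14), among them the removal of any 1 of the 3 DN1 libraries or of iDN1 library 2, 3 or 4. Rpsa-ps4 had 0.934 to 1.17 FPKM and 3.18 to 4.40 FPKM (-1.25 ± 0.37 SE, limma adjusted p = 0.0103; lost in 1 of 14, without DN1 libraries 1 and 2 and DN2 library 2), and Rpsa-ps11 fell by 1.20 ± 0.33 SE (limma adjusted p = 0.00552).

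Other values moved with this comparison. The 3 natural killer markers, none of them at 0 in every library of either group, summed to 6.35 to 40.6 FPKM in iDN1 and 1239.6 to 1331 FPKM in natural DN1, and the 3 dendritic cell markers to 11.1 to 43.5 FPKM and 248 to 314 FPKM. Xist had 9.87 to 15.9 FPKM in iDN1 and 0.449 to 1.39 FPKM in DN1, and Ddx3y 0 to 0.636 FPKM and 3.71 to 5.55 FPKM. Their part in the copies' difference was not tested. In DN2, natural killer markers summed to 0.194 to 1.22 FPKM and Ddx3y had 10.1, 0.325 and 15.7 FPKM, and the members' sum was at 3721 to 4239 FPKM in all 3 libraries.

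Induced CD8 single positive cells showed the same form against natural ones. Of the 82 members 46 (56.1%) rose in iCD8_SP, 1 (1.22%) fell and 35 did not pass, against 5.63% higher and 5.01% lower over all genes (980 and 872 genes, or 692 and 1019 with quantile normalization). The median log2 fold change was 1.64 over the members, 0.17 over the parents (11 higher, 2 lower) and 0.18 over the cytosolic ribosomal protein genes (22 higher, 6 lower). Copies and parents here leaned the same way, with the copies moving much further. The 3 natural killer markers summed to 0 to 2.48 FPKM in iCD8_SP, with Klrb1c and Gzmb at 0, and 14.1 to 26.2 FPKM in CD8_SP. The dendritic markers summed to 6.85 to 21.3 FPKM and 30.2 to 108 FPKM, and Ddx3y was at 0 in every iCD8_SP library and at 11 to 15.2 FPKM in CD8_SP. Their part was not tested.

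Rps16-ps2 had 568, 591, 381 and 402 FPKM in iCD8_SP and 0, 0.584 and 0 FPKM in CD8_SP libraries, while Rps16 had 5319.8, 5704, 4573 and 3996 FPKM in iCD8_SP and 5186, 4969 and 4821 FPKM in CD8_SP. The parent ranges overlapped and the copy's did not. Rps3a2 had 98.7, 109, 77.2 and 96.7 FPKM in iCD8_SP and 0.471, 0.341 and 0 FPKM in CD8_SP libraries (log2 fold change 6.25 ± 0.21 SE, limma adjusted p = 8.82e-33), with Rps3a1 at 2583 to 3211 FPKM and 2907 to 3396 FPKM. Rps27rt had 331, 589, 314 and 297 FPKM in iCD8_SP and 7.53, 5.46 and 8.81 FPKM in CD8_SP libraries (5.5 ± 0.25 SE, limma adjusted p = 9.00e-27). Its parent Rps27 also rose, with 2484 to 4001 FPKM in iCD8_SP and 1189.9 to 1290.4 FPKM in CD8_SP (1.21 ± 0.17 SE, limma adjusted p = 1.14e-07), by less than the copy. Rpl6l had 29.9, 32.1, 26.3 and 28.4 FPKM in iCD8_SP and 0.209, 0 and 0 FPKM in CD8_SP, against 1019 to 1291 FPKM and 1668 to 1848 FPKM of Rpl6. Rpl37rt had 83.0, 129, 52.9 and 58.0 FPKM in iCD8_SP and 1.39, 2.87 and 1.03 FPKM in CD8_SP (4.85 ± 0.32 SE, limma adjusted p = 8.56e-19).

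The member that fell in iCD8_SP was Rps6-ps1, with 0 to 1.81 FPKM in iCD8_SP and 2.72 to 2.93 FPKM in CD8_SP libraries (log2 fold change -1.19 ± 0.37 SE, limma adjusted p = 0.0238). This call was lost in 8 of 13 alternatives (limma adjusted p = 0.00851 to 0.137 over the 13), among them the removal of any 1 of the 3 CD8_SP libraries or of iCD8_SP library 3 or 4. Rps6-ps4, another copy of Rps6, went the other way, with 167 to 203 FPKM in iCD8_SP and 0 FPKM in CD8_SP libraries. Of the 42 members higher in iDN1 and the 46 higher in iCD8_SP, 41 were shared, which is 97.6% of the first list and 89.1% of the second. The comparisons have no library in common, but both lists come from the same members, chosen by level. The overlap over all genes was not counted, so the shared members are a description. Rps15a-ps7 was called in the first alone, and 5, among them Rpl36-ps12, Rps15a-ps5, Rps24-ps3 and Rpsa-ps12, in the second alone, without a test of that difference. The 47 members higher in either had means of 2.42 to 520.2 FPKM (median 30.9) and the 35 in neither 1.05 to 22.0 FPKM (median 1.45). A mean of at least 10 FPKM was reached by 39 of the 47 and by 1 of the 35.

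Natural neighbours gave a comparison in which no induced cell takes part. Against DN2, 45 members fell and 1 rose in DN1 (13.2% of all genes lower and 13.2% higher, median -1.69 over the members and 0.0 over all genes). Against CD4_SP, 45 fell and 2 rose in CD8_SP (12.4% and 10.3% of all genes, median -1.70). Those shares are 2162 lower and 1786 higher genes, which became 1532 and 2250 with libraries scaled to an equal total, when 44 members fell and 3 rose. The DN1 libraries are those of the iDN1 comparison and the CD8_SP libraries those of the iCD8_SP comparison, so these counts are not independent of the ones above. Rps16-ps2 had 0 FPKM in every DN1 library, against 524, 564 and 469 FPKM in DN2, and 0, 0.584 and 0 FPKM in CD8_SP, against 364, 484 and 681 FPKM in CD4_SP. Rps3a2 differed by -5.99 ± 0.23 SE on the log2 scale in CD8_SP against CD4_SP (limma adjusted p = 2.80e-30), with 69.7, 81.9 and 86.2 FPKM in CD4_SP. The parents fell less: 12 fell and 3 rose in DN1 against DN2, and 23 fell and 4 rose in CD8_SP against CD4_SP (15 and 10 with quantile normalization). The members higher in a natural group of low sum were of low level: Rpsa-ps4 in DN1 (1.12 ± 0.39 SE, limma adjusted p = 0.0267; lost in 8 of 13 alternatives, with 0.0105 to 0.392 over the 13, among them without DN1 library 1 or 2 or DN2 library 2 or 3), and Rpsa-ps9 (1.30 ± 0.38 SE, limma adjusted p = 0.00827; lost in 3 of 13, one of them without CD8_SP library 2) and Rps6-ps1 (1.81 ± 0.39 SE) in CD8_SP.

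Whether the signed log2 fold change of induced over natural cells differed between DN1 and DN2 was tested as a difference of differences. Larger here means a more positive fold change at DN1 (or at CD8_SP), not a wider gap in size. It passed for 42 members, all larger at DN1 (2.80% of all genes were larger and 3.48% smaller, 6.28% in all), with a median of 1.70 on the log2 scale. Between CD8_SP and CD4_SP it passed for 45 members, of which 44 were larger at CD8_SP (3.81% of all genes) and 1 smaller (4.25%, and 8.06% in all), with a median of 2.15. Of the 78 cytosolic ribosomal protein genes, the parents' wider list, 4 were larger and 1 smaller at DN1. At CD8_SP 53 were larger and 0 smaller, with a median of 0.72. The median change of these genes was -0.61 in iCD4_SP and 0.18 in iCD8_SP, so in size it was wider at CD4_SP. The differences of differences were tested on the values as deposited alone. With quantile normalization the median of the ribosomal protein genes went from -0.61 to -0.07 in iCD4_SP and from 0.18 to 0.10 in iCD8_SP, so the 53 may depend on the scaling. Rpl39-ps differed by 5.03 ± 0.44 SE between DN1 and DN2 (limma adjusted p = 7.25e-14), and its parent Rpl39 by 0.52 ± 0.32 SE (limma adjusted p = 0.472).

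**Figure D4:**
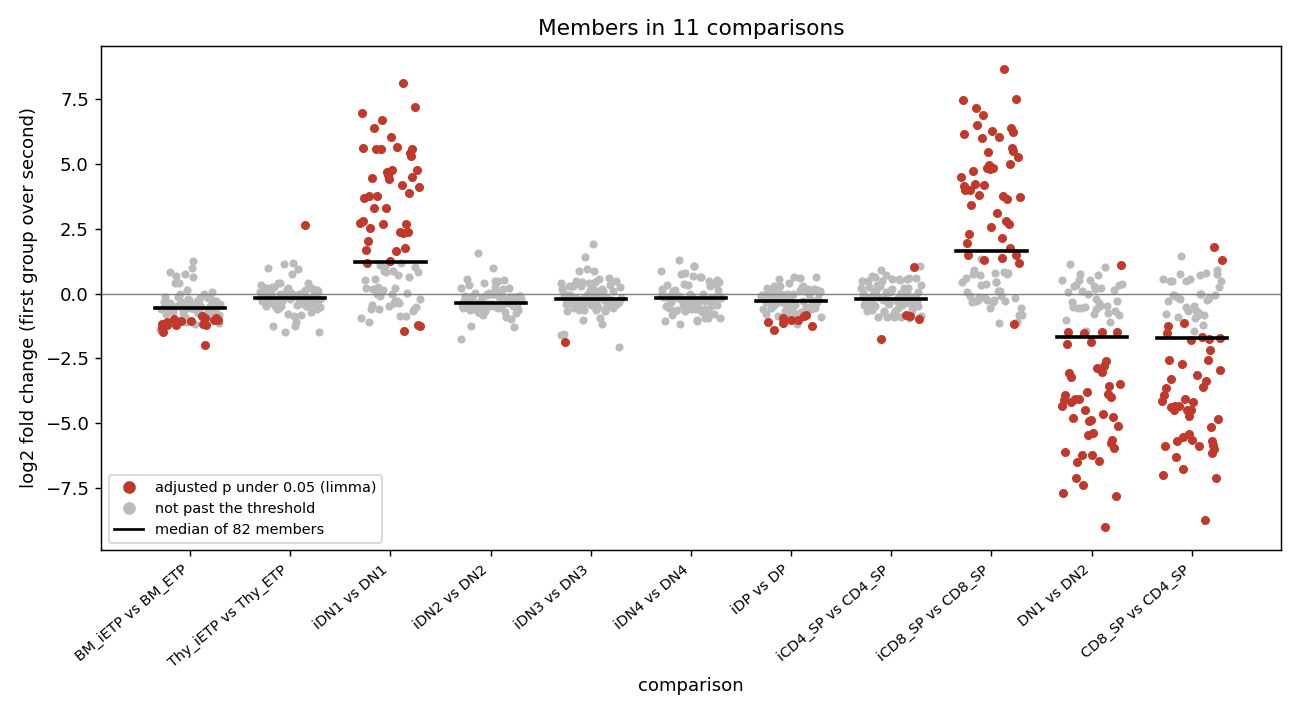
log2 fold change of each member (vertical axis, log2(FPKM + 1) scale, first group over second) in the 11 comparisons (horizontal axis), 1 point per member, red where the adjusted p was under 0.05, with a bar at the median. The medians are 1.22 in iDN1 and 1.64 in iCD8_SP, run from -0.57 to -0.16 at the other 7 stages (in iCD4_SP 0.07 with libraries scaled to an equal total), and are -1.69 in DN1 against DN2 and -1.70 in CD8_SP against CD4_SP. For copies listed at 0 in a group the fold change depends on the pseudocount.

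At the other 7 stages few members rose. In iDN2 none passed (0, with 8 at an unadjusted p under 0.05; 0.879% and 0.626% of all genes were higher and lower, 1.50% in all), and in iDN4 none passed (0, with 11; 0.390% and 0.350%, 0.741% in all). Thy_iETP had 1 higher, Rps19-ps3, at 7.07 to 29.3 FPKM against 0 and 6.61 FPKM in Thy_ETP (2.64 ± 0.75 SE, limma adjusted p = 0.0153), where 4.49% of all genes were higher and 3.78% lower (8.27% in all). Without Thy_ETP library 1 its fold change was 1.17 (limma adjusted p = 0.658), without Thy_ETP library 2 it was 4.10, and the call was also lost without Thy_iETP library 1 or 2 and with the 2 groups alone (4 of 12 alternatives, limma adjusted p = 0.00179 to 0.658 over the 12). iDN3 had 1 lower, Rpl17-ps5, at 0 to 0.517 FPKM against 3.13 and 3.28 FPKM in DN3 (-1.87 ± 0.51 SE, limma adjusted p = 0.0246), where 2.35% of all genes were higher and 1.19% lower (3.54% in all). That call was lost in 7 of 12 alternatives (limma adjusted p = 0.0106 to 0.807 over the 12), among them without iDN3 library 2 or 3 or either DN3 library. Single calls of members at these levels rest on a few fragments. Median log2 fold changes of the members were -0.16 in Thy_iETP, -0.35 in iDN2, -0.19 in iDN3 and -0.19 in iDN4, beside -0.14, -0.35, -0.31 and -0.18 for the cytosolic ribosomal protein genes. Scaling to an equal total moved the split of all genes to 186 higher and 75 lower in iDN2, 467 and 135 in iDN3 and 78 and 42 in iDN4, against 153 and 109, 409 and 207 (310 and 259 with quantile normalization), and 68 and 61 as deposited, with 0, 1 and 0 members called.

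In BM_iETP 17 members fell (20.7%, against 16.8% of all genes) and 0 rose (14.4% of all genes, 31.1% in either direction). The median was -0.57, and the ribosomal protein genes themselves fell, 65 of 78 with a median of -0.69 (38 lower and 6 higher with quantile normalization, median -0.28). Rpl14-ps1, a copy of a large-subunit gene, had 25.1 and 43.5 FPKM in BM_iETP and 89.0, 95 and 100.1 FPKM in BM_ETP (-1.49 ± 0.25 SE, limma adjusted p = 2.62e-06). Its parent Rpl14 had 1363 and 1867 FPKM in BM_iETP and 3452 to 3707 FPKM in BM_ETP (-1.16 ± 0.16 SE, limma adjusted p = 3.43e-08). Copy and parent moved together here, and the member share was 3.00% and 3.01% in BM_iETP and 2.86% to 3.12% in BM_ETP. The second named member, Rps19-ps3, had 0 and 2.00 FPKM in BM_iETP and 3.56 to 7.70 FPKM in BM_ETP, a call lost in 5 of 12 alternatives, with a log2 fold change of -1.18 without BM_iETP library 1, against -1.97 with all libraries, and lost also without BM_ETP library 1 or 3. Myeloid markers summed to 1209 to 1706 FPKM in BM_iETP and 18425 to 30399 FPKM in BM_ETP, and B lineage markers to 7641 to 8030.1 FPKM and 68.7 to 86.9 FPKM, and their part was not tested. Without BM_iETP library 1 the count was 8, and without BM_ETP library 1 it was 11.

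In iCD4_SP 4 members fell and 1 rose (12.4% and 14.0% of all genes), with a median of -0.19, while 60 of the 78 ribosomal protein genes fell with a median of -0.61. These directions depended on the scaling: with libraries scaled to an equal total 7 members rose and 0 fell (median 0.07; 3423 genes higher and 1431 lower in all, against 2436 and 2163 as deposited), and with quantile normalization 15 ribosomal protein genes rose and 23 fell. Rpsa-ps12 had 2.33 to 7.74 FPKM in iCD4_SP and 6.98 to 14.6 FPKM in CD4_SP (-1.0 ± 0.31 SE, limma adjusted p = 0.0119), and the ranges overlapped. The call was lost in 4 of 15 alternatives, among them without iCD4_SP library 3 or CD4_SP library 3. Rpl31-ps6 had 0 to 4.21 FPKM in iCD4_SP and 3.16 to 21.3 FPKM in CD4_SP (-1.76 ± 0.67 SE, limma adjusted p = 0.0445), also with overlap. Without CD4_SP library 1 its fold change was -0.98 (limma adjusted p = 0.411), and the call was lost in 8 of 15 alternatives (limma adjusted p = 0.0179 to 0.607 over the 15), among them without iCD4_SP library 2 or 4. The riser was Rps6-ps1, at 1.03 to 1.65 FPKM in iCD4_SP and 0 to 0.323 FPKM in CD4_SP (1.04 ± 0.37 SE, limma adjusted p = 0.0277), a call lost in 6 of 15 alternatives, among them without iCD4_SP library 1 or 3 or CD4_SP library 2 or 3. The CD4_SP libraries were not alike: libraries 1 and 2 had member shares of 2.14% and 2.16% and library 3 had 3.15%. In 33 of the 40 members of at least 10 FPKM both lay below library 3, with a median difference of -0.69 on the log2 scale, against -0.13 for the parents.

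In iDP 9 members fell (5.53% of all genes) and 0 rose (4.83%, and 10.4% in either direction), with a median of -0.30, and 20 of 78 ribosomal protein genes fell with 1 higher (median -0.20). Scaling to an equal total gave 5 members lower (median -0.11) and 8 ribosomal protein genes on each side (median 0.02), with 1436 genes higher and 574 lower in all, against 841 and 963 as deposited. The count rested on library 3 of iDP. Its member share was 1.73%, against 3.22% and 3.36% in libraries 1 and 2 and 3.19% to 3.30% in the DP libraries, and 92.2% of its low values lay near whole fragments. In it 37 of the 40 members of at least 10 FPKM lay below both other iDP libraries, by a median of -1.20, and the parents by -0.28. Rps16-ps2 had 291, 259 and 103 FPKM and Rps27rt 318, 344 and 144 FPKM in iDP libraries 1, 2 and 3. Without library 3 the count of members called was 1. Rps27a-ps2, a copy of the gene for a ribosomal protein made as a fusion with ubiquitin, had 23.4 to 36.5 FPKM in iDP and 70.4 to 78.4 FPKM in DP (-1.25 ± 0.28 SE, limma adjusted p = 0.00127), and Rps27a fell by 0.84 ± 0.13 SE (limma adjusted p = 2.82e-06).

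Sequence and level were related among the members. Each member was cut into all windows of 50 bases, and the share found letter for letter in the parent transcript was counted, with a median of 58.2%. Of 53 members with at least 50% of windows in the parent, 38 were higher in iDN1 and 40 in iCD8_SP, and 0 were lower in either. Of 29 members under 50%, 4 were higher and 3 lower in iDN1, and 6 higher and 1 lower in iCD8_SP. The median difference in log2(FPKM + 1) between the 6 natural DN1 and CD8_SP libraries and the 67 others outside the myeloid group was -3.78 for the first class and -0.340 for the second. Where a copy is listed at 0 this difference depends on the pseudocount of 1. The classes also differed in level, with median means of 24.8 and 1.99 FPKM.

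Within a class of level the picture was mixed. Of the 36 members of at least 10 FPKM with at least 50% of windows in the parent, 34 were higher in iDN1 and 36 in iCD8_SP (median difference -4.64). Of the 4 others of that level 3 were higher in each comparison (median difference -2.12). Among the 4 was Rpl18-ps1, scored against Rpl18 by name, and 44.7% of its windows were found in its best match. Another was Rpl37rt, of which 50.4% of 682 bases aligned to Rpl37. That stretch of 344 bases had 1 mismatch (99.7% identity), so its low share of windows does not mean a lack of shared sequence. Among members under 10 FPKM, 4 of the 17 at or over 50% were higher in each comparison (median difference -0.180), against 1 in iDN1 and 3 in iCD8_SP of the 25 under 50% (-0.310). In that class some members with long shared sequence had a gap, such as Rps23-ps2 (73.9% of windows, difference -3.04) and Rpl17-ps8 (82.3%, -1.65). Others had little, such as Rpl17-ps9 (80.2%, -0.18) and Rps13-ps4 (72.7%, -0.02). Rps12-ps5, with little shared sequence, also had a gap (27.4%, -2.77). Near 1 FPKM the pseudocount of 1 leaves little room for a gap. Over all 82 members the share of windows and the difference had a Pearson correlation of -0.69 and a Spearman correlation of -0.68. The points share libraries, depth and in many cases a parent, and the share of windows also rose with level (0.59 and 0.55), so this is a description.

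**Figure D5:**
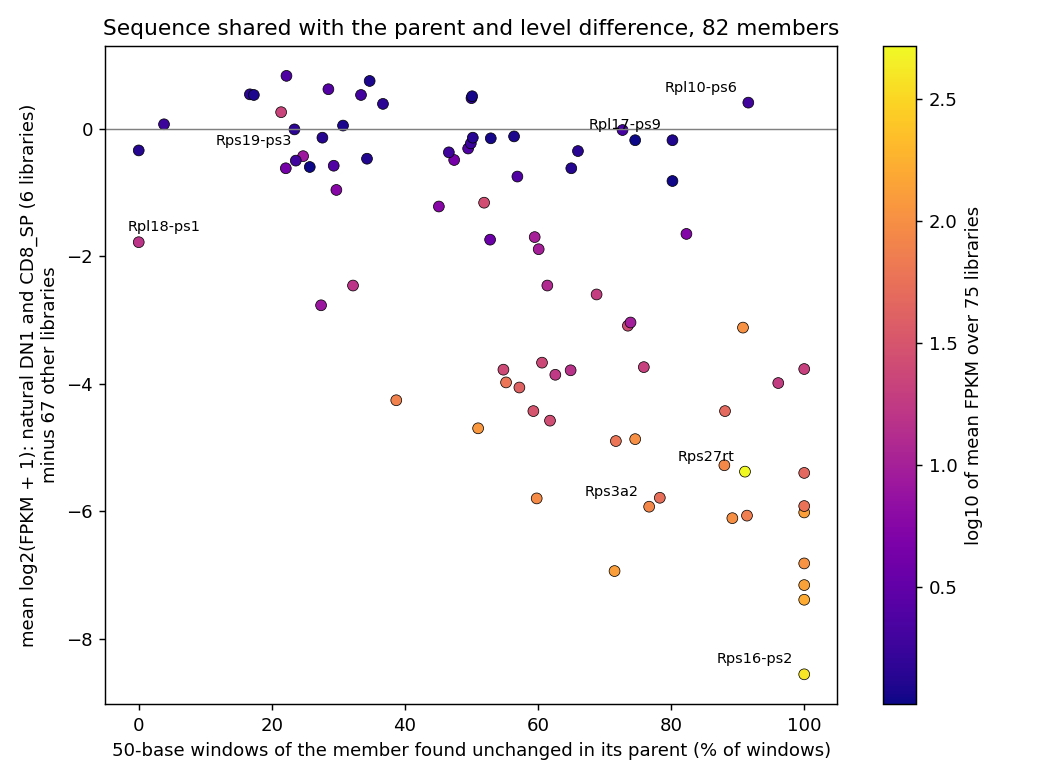
Each point is a member: the percent of its 50-base windows found exactly in the parent transcript against the difference in log2(FPKM + 1) of natural DN1 and CD8_SP minus the other libraries without myeloid cells, with colour for the log10 of the mean FPKM. Rps16-ps2 lies lowest at -8.56 with 100% of windows shared, and Rpl10-ps6 lies above 0 with 91.6%.

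The printed pairs were named with their values known. The 8 members identical to the parent over their whole length (Rps16-ps2, Rps6-ps4, Rpl10a-ps1, Rps13-ps2, Rpl28-ps1, Rpl31-ps8, Rpl38-ps2 and Rpl27-ps3) were all higher in both comparisons, with a median difference of -6.42. Rps3a2, with 4 mismatches and 76.7% of windows shared, behaved like them. Rpl10-ps6 has 1 mismatch in its length and 91.6% of windows shared, yet had 2.64, 2.23, 0.396 and 1.85 FPKM in iDN1 and 4.95, 4.46 and 2.90 FPKM in DN1. It had 2.08, 4.43, 1.44 and 1.88 FPKM in iCD8_SP and 1.34, 0.866 and 2.33 FPKM in CD8_SP, and neither difference passed (limma adjusted p = 0.170 and 0.748).

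Measured as a share of copy plus parent, copies varied by no more than a few fold across most of the series. Rps16-ps2 took 0% to 0.0117% of the pair in the 6 natural DN1 and CD8_SP libraries, against 4.41% to 10.1% (median 8.17%) in the 67 others outside the myeloid group. Rps6-ps4 took 0% against 4.10% to 11.8% (median 8.42%), and Rpl10a-ps1 0% against 8.31% to 13.3% (median 11.3%). Rps27rt, of which 341 of 374 bases align to Rps27 without a mismatch, took 0.457% to 0.828% against 5.95% to 14.9% (median 11.3%). Within the 67 libraries these shares stayed within a few fold while the copies' own levels ranged much further. Rps27rt, for example, averaged 1948 ± 640.0 FPKM in mature T (SD, n = 3), 1784 ± 234 FPKM in mature B (SD, n = 4), 637 ± 76.6 FPKM in HSC (SD, n = 4) and 269 ± 109 FPKM in iDP libraries (SD, n = 3).

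Mature myeloid libraries departed from this in several copies. Their depth was 0.970 and 0.986 fragments per FPKM and kilobase, and 30 members were at 0 in both libraries. Rpl37rt took 30.3% and 33.7% of its pair there, against 5.55% to 23.2% in the 67 other libraries, with 147 and 91.5 FPKM. Rps24-ps3 had 117 and 90.2 FPKM in the 2 myeloid libraries and group means under 10 FPKM in each group of T lineage cells from ETP to single positive. Rps27rt went the other way, taking 2.36% and 4.42% of its pair. With 2 libraries of this depth the values are given without a test.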

How the data were processed

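RNA was measured in 76 libraries of 24 groups. Per the submitters' processing notes, the authors used bcl2fastq, TopHat, Cufflinks 2.2.1 and Cuffnorm with build NCBIM37, and deposited FPKM values, 1 row per Ensembl gene. Cuffnorm's library scaling, the treatment of reads that align to several places, the annotation and the strand setting are not given in the sources used here. Replicate 3 of the pro/pre-B group is a copy of replicate 1 and was left out. Symbols came from GENCODE vM21 of GRCm38 and were found for 32916 of 37980 IDs (86.7%), which is not the authors' build, so coordinates and sequences are those of GRCm38.

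Of the values as deposited, log2(FPKM + 1) was fitted under R 4.3.3 by limma 3.58.1, with a robust, trended empirical Bayes step, 1 mean per group and 51 residual degrees of freedom. The fit took the 17416 genes that reached 1 FPKM in 2 or more libraries, which all 82 members did. Two-sided p-values got a Benjamini-Hochberg correction over all those genes, with a threshold of 0.05. There were 11 comparisons and 2 differences between comparisons. The fit was first tested on simulated data. Depth was placed from 4285 genes with 1 transcript of at least 1000 bases. Copies were aligned to parent transcripts with blastn 2.17.0, and tables and plots were made in Python 3.11.15 (matplotlib 3.10.9, scipy 1.17.1, pandas 2.3.3, numpy 2.4.6).

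The members, the lists and the comparisons were chosen with earlier results of these data known. A parent is the gene whose symbol remains without the ending, or Rps3a1, Rps27, Rpl6 or Rpl37. Named were Rps3a2, Rps27rt, Rpl6l and Rpl37rt, the 10 other members of highest mean, in each comparison up to 2 members of highest and 2 of lowest fold change among those called, the members next to the minimum, and the parents of these. Rpl10-ps6, Rpl14-ps1 in its other groups, Rpl18-ps1, Rpl17-ps8, Rps12-ps5, Rps23-ps2, Rps24-ps3, Rpsa-ps11 and members listed by name as part of a count were chosen after their values were seen. So were Rpl17-ps9 and Rps13-ps4. Of 79 cytosolic ribosomal protein genes listed, 78 were found. Alternatives were a pseudocount of 0.1, no filter, libraries scaled to an equal total, quantile normalization, a replicate block, a fit of the compared groups alone, and each library left out in turn. A few members and genes are counted but not reported by name here. Sex-linked genes and marker lists were given as values.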

Additional observations from a re-analysis of the deposited data

Results flagged for a closer look

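In groups of 4 libraries, 128 tests over 16 values (the member share and named members) asked whether the highest or lowest library stood apart by Dixon's criterion, and chance flags about 1 in 20. The member share was 3.08% in HSC library 4, against 2.67% to 2.72% in the other HSC libraries, and 2.91% in iDN4 library 3, against 3.01% to 3.02%. Rps27rt had 589 FPKM in iCD8_SP library 2, against 297 to 331 FPKM in the others, and Rpl39-ps had 217 FPKM there, against 97.5 to 117 FPKM. Rpl34-ps1 had 218 FPKM in HSC library 4, against 117 to 134 FPKM. Among DP libraries Rps6-ps4 had 75.9 FPKM in library 2, against 117 to 123 FPKM, Rpsa-ps10 had 46.8 FPKM in library 2, against 56.5 to 57.5 FPKM, and Rpl9-ps6 had 58.9 FPKM in library 1, against 84.1 to 87.6 FPKM.

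The change of induced against natural cells differed between stages, by limma's test of the difference itself, for 42 members between DN1 and DN2 and for 45 members between CD8_SP and CD4_SP.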

How the results depend on the processing

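Under every setting run, including each library left out in turn, 42 to 48 members were called with DN1 in the comparison and 41 to 48 with CD8_SP, apart from the removal of natural DN1 libraries 1 and 2 and DN2 library 2, which was chosen after seeing the data and left 39 in iDN1 against DN1. Leaving out each library in turn gave 43 to 47 in iDN1, 43 to 48 in iCD8_SP, 44 to 48 in DN1 against DN2, 44 to 47 in CD8_SP against CD4_SP, 8 to 17 in BM_iETP, 0 to 2 in Thy_iETP, 0 to 0 in iDN2, 0 to 1 in iDN3, 0 to 0 in iDN4, 1 to 13 in iDP and 2 to 6 in iCD4_SP. Small counts moved more. In iDP (9) the count was 5 with a pseudocount of 0.1, 5 without a filter, 5 with equal totals, 0 with the 2 groups fitted alone, and 2 without iDP library 3 and CD4_SP libraries 1 and 2, a setting chosen after seeing the data. In iCD4_SP (5) it was 3 with a pseudocount of 0.1, 1 without a filter, 1 with the 2 groups alone, and 8 without those libraries. With the 2 groups alone it was 6 in iDN4 (0) and 0 in Thy_iETP (1), and in iDN3 (1) it was 0 with a pseudocount of 0.1, without a filter and with the 2 groups alone. The cause of these changes was not tested. Only the fits of 2 groups alone and those without some libraries had fewer samples. A minimum mean of 5 FPKM leaves 47 members, and no minimum 199. Of 945 values of named members under alternatives, 879 kept direction and side of the threshold, 66 lost the call and 0 reversed. Most of the 945 belong to the members named beforehand or for the highest means, in comparisons with natural DN1 or CD8_SP. No call was lost there. All 66 losses fell among the other named calls, which lost from 0 of 12 alternatives (Rpl14-ps1 in BM_iETP) to 9 of 14 (Rps18-ps1 in iDN1). The pooled count therefore says little about those calls.

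A replicate block gave 46 members called in iDN1, 46 in iCD8_SP, 46 in DN1 against DN2, 47 in CD8_SP against CD4_SP, 18 in BM_iETP, 1 in Thy_iETP, 0 in iDN2, 1 in iDN3, 0 in iDN4, 7 in iDP and 4 in iCD4_SP. The labels do not say what libraries of the same number share beyond that number. Correlations of their deviations ran from -0.040 to 0.067. The deviations are from means of few libraries, so these values cannot show whether an animal or a day was shared. Depth limits members under 10 FPKM, for which 1 FPKM is about 1.99 fragments.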
